A study of Mus musculus with 180 samples.

Results

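Rab GTPases are the largest family of small GTPases, and each member marks particular membranes of the secretory and endocytic routes. A Rab protein is made without a signal peptide, is lipid-modified after synthesis on cysteines at its very end by Rab geranylgeranyl transferase, and then cycles between membranes and the cytosol with the help of its escort proteins and GDP dissociation inhibitors. In neurons the family is known for synaptic vesicle release, receptor recycling and traffic of endosomes along axons and dendrites. The Rab genes described here are the 59 of 54429 rows of the count table whose symbol is Rab, a number and at most a letter and a further digit, chosen by name and not by any measured value.

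The libraries came from B6.Cg mice carrying Tg(Camk2a-cre)T29-1Stl/J that also had the B6N.129-Rpl22tm1.1Psam/J allele, so that all groups share a Cre recombinase driven by the Camk2a promoter, which is active in forebrain excitatory neurons, and a ribosomal protein, Rpl22, that gains an HA tag where Cre is active. There were 30 male mice in 4 groups: 7 trained by contextual fear conditioning and then deprived of sleep (CFC SD), 8 trained and left to sleep (CFC Sleep), 7 untrained and deprived (NoCFC SD) and 8 untrained and left to sleep (NoCFC Sleep). Age and the length of sleep deprivation are not given in the sources used here. Each mouse gave 6 libraries: hippocampal homogenate was split into a pellet (membrane) and a supernatant (cytosolic) fraction, and from each fraction RNA was taken with anti-HA antibody (Camk2a capture), with an antibody to phosphorylated ribosomal protein S6 (pS6 capture, a mark of active neurons), or with no capture (Input).

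The 180 libraries held 11.98 to 26.95 M (mega) counts, with a median of 18.91 M. The labels name a neuronal cell type, and the summed level of 7 excitatory neuron markers had a median of 11212 CPM (counts scaled to the same nominal library size) in Camk2a cytosolic libraries, against 6904 CPM in Input cytosolic libraries; the sum of 7 astrocyte markers was 57.3 CPM in Camk2a cytosolic and 529 CPM in Input cytosolic libraries. Markers of other cells were not absent from the captures: the astrocyte sum reached a median of 1015 CPM in Camk2a membrane libraries, and no marker of any list was at 0 throughout a library type. The sum of 4 choroid plexus markers ranged from 38.1 to 13986 CPM among pS6 membrane libraries. By number, mice 1 to 11 were all untrained and mice 12 to 22 all trained, while every group had 2 of its mice among numbers 23 to 30. The labels name no batch, and these 3 ranges of numbers are called runs here.

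The ends of the coding sequences show the feature that joins the family. In the reference (GRCm38, GENCODE vM21) the last 5 codons of all 59 members held a cysteine codon, and in 50 of them at least 2. Of these ends, 20 had cysteines in the last and the third-last place (CXC), 15 in the last 2 places (CC), 15 in the fourth-last place with none after it and none or 1 before it in the last 5 (CXXX), 6 in the order CCXX and 3 in the order CCX. Those of 7 members that the results turn on are shown, as the last 8 codons and the stop codon, with the cysteine codons in capitals.
Rab9b: tccaaagcaagttcttctTGTTGTtag
Rab2a: cagcaggcagggggaggcTGCTGTtga
Rab3a: ccacctcatcaggatTGTgccTGCtga
Rab31: ttgcaagccagccgtcggTGCTGCtga
Rab8b: agtttcttccgcTGTtctctgctttga
Rab40c: tctcggagcaacTGCaagatctcctag
Rab13: aagaagaacaagTGCttgttaggctga
Rab9b and Rab31 share the CC end and lie near opposite ends of the fraction comparison, and the same holds of Rab8b and Rab13, which share the CXXX end.

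Rab transcripts differed in level by several orders of magnitude. Levels are given as CPM after scaling of all libraries together by the trimmed mean of M values (TMM), divided by exon length in kilobases where genes are compared with each other. Rab3a, the Rab of synaptic vesicles, was highest per length in 5 of the 6 library types, with a median of 767 CPM per kb in Camk2a cytosolic libraries. Rab6a, which works at the Golgi, came first in pS6 membrane libraries with 369 CPM per kb, ahead of Rab3a with 337 CPM per kb. Rab2a, which acts between the ER and the Golgi, had 411 CPM per kb in Camk2a cytosolic libraries, and Rab6a had 278 CPM per kb. Together Rab3a, Rab6a and Rab2a made up 35.6% of the summed medians of all members there.

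In all, 7 members reached 100 CPM per kb in Camk2a cytosolic libraries and 11 stayed under 1 CPM per kb. Rab17, Rab19, Rab25 and Rab44 entered no test: they were at 0 in 117, 99, 159 and 139 of the 180 libraries, in that order, and the highest value of any of them was 0.866 CPM, for Rab19. Rab20, Rab7b and Rab4b were too low for a test in some library types, so that 53 to 55 members were tested in each fit. Exons of 20 members overlap another gene, and 11 members share more than 10% of their 50-base windows with other genes, among them Rab43 (90.4%), Rab24 (43.5%, with Prelid1), Rab7 (27.8%) and Rab6a (22.3%, with Mrpl48). The strand used in counting is not given in the sources used here, so the counts of these genes are uncertain.

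The first question was in which fraction the messages for proteins that reach membranes by a lipid anchor make up more of the counts. Rab transcripts made up a larger part of the counts in cytosolic than in membrane libraries. CPM are relative to each library's own counts, so they do not show how the molecules divide between the fractions. The summed level of the 59 genes had a median of 5587 CPM in Camk2a membrane libraries (lowest 5117, highest 5932, n = 30), against 10234 CPM in Camk2a cytosolic libraries (lowest 9743, highest 10720, n = 30). In the pS6 capture the sum was 6274 CPM in membrane and 11940 CPM in cytosolic libraries, and in Input 4794 CPM in membrane and 8164 CPM in cytosolic libraries. In none of the 3 captures did the membrane and cytosolic ranges of the sum overlap.

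A gene was called different between fractions where edgeR's quasi-likelihood F-test gave a Benjamini-Hochberg adjusted p under 0.05 over all genes and the fold was at least 2. By this rule 16 of 54 members had less RNA in membrane than in cytosolic libraries of the Camk2a capture, where 10.2% of all genes were called lower, and 3 were higher, where 27.9% of all genes were called higher. In the pS6 capture 20 of 55 members were lower, against 9.96% of all genes, and 1 was higher, against 25.3%. In Input 16 of 55 were lower, against 8.97%, and 1 was higher, against 22%. The median log2 fold change, membrane over cytosolic, was -0.79 over the members and -0.07 over all genes in Camk2a. In pS6 it was -0.88 over the members and -0.03 over all genes, and in Input -0.72 over the members and -0.12 over all genes.

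By adjusted p alone 48, 49 and 48 members were lower in Camk2a, pS6 and Input, and 47 were lower in all 3, among 47.1%, 43.4% and 48.3% of all genes lower by that rule. With the fold rule 11 members were lower in each capture: Rab1a, Rab2a, Rab8b, Rab9b, Rab11a, Rab12, Rab18, Rab27a, Rab27b, Rab33a and Rab38. The share of all genes lower in all 3 captures was not computed for either rule. Scaling by the median of ratios (RLE), the alternative used by DESeq2, moved the median of all genes up by 0.08, 0.06 and 0.10 on the log2 scale. With it 50, 51 and 49 members stayed below 0, against 50, 52 and 50 with TMM, and the counts called lower were 13, 16 and 10. With 10 called lower in Input, not all of the 11 above kept their call there.

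**Figure D1:**
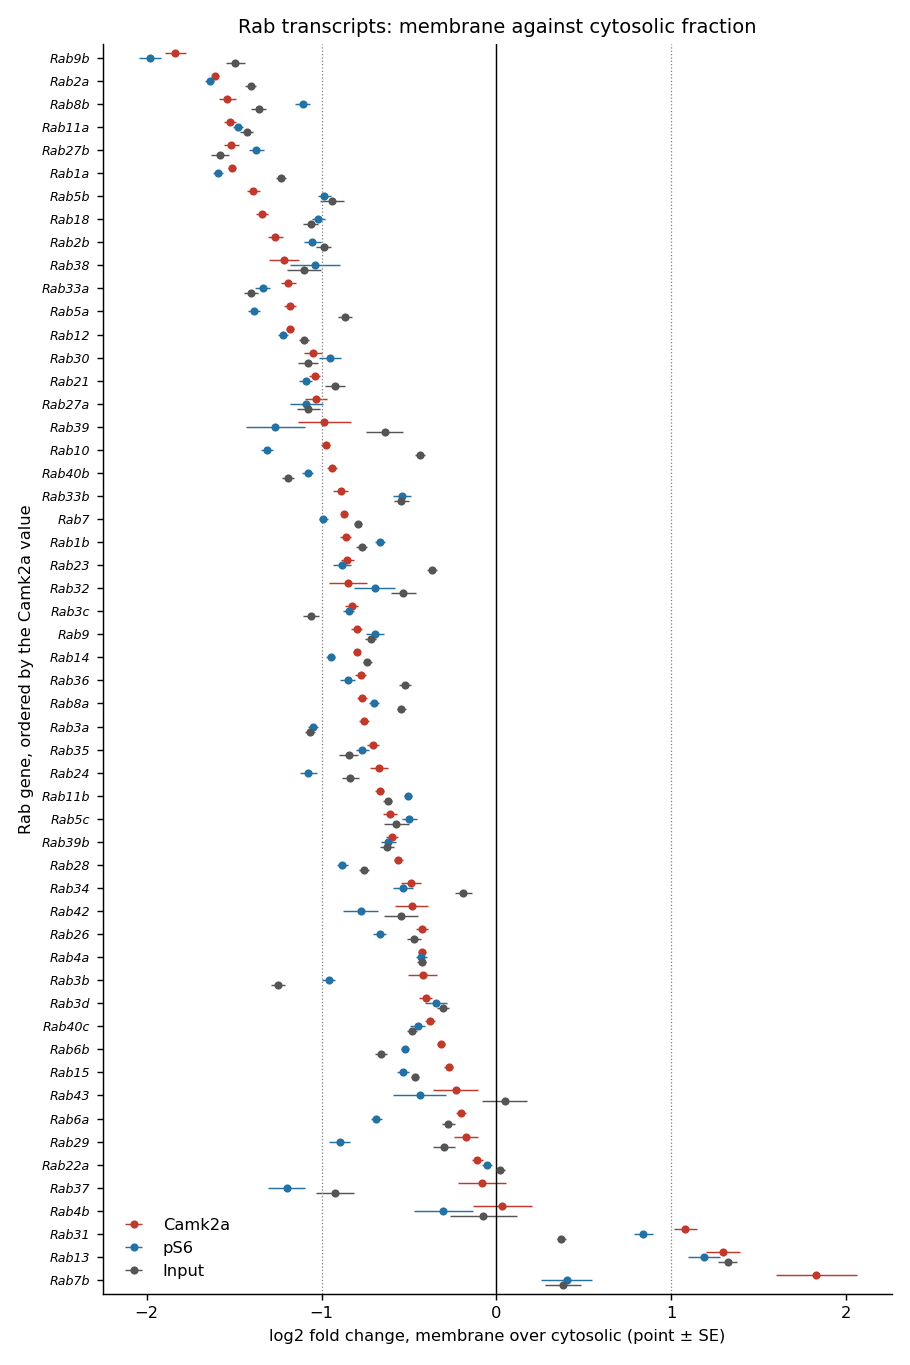
Log2 fold change of each tested Rab gene, membrane over cytosolic, on the horizontal axis, with its standard error, in the Camk2a capture (red), the pS6 capture (blue) and Input (grey), ordered by the Camk2a value; dotted lines mark a fold of 2. In Camk2a 50 of 54 points lie left of 0, and Rab31, Rab13 and Rab7b lie right of it in all 3 captures.

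Among members of the ER and Golgi, Rab1a, which brings vesicles from the ER to the Golgi, had 123, 138 and 155 CPM (lowest, median and highest of 30) in Camk2a membrane libraries, against 386, 417 and 476 CPM in Camk2a cytosolic libraries. The ranges did not overlap, and the log2 fold change was -1.51 ± 0.02 (SE, adjusted p = 1.46e-55, edgeR quasi-likelihood). Rab2a had 236, 268 and 301 CPM in membrane and 802, 876 and 948 CPM in cytosolic libraries of the same capture, a log2 fold change of -1.61 ± 0.02 (adjusted p = 8.81e-60). Rab6a differed far less between fractions: it had 687, 851 and 962 CPM in membrane libraries and 891, 1038 and 1157 CPM in cytosolic libraries. Its ranges overlapped. The log2 fold change was -0.20 ± 0.03 in the Camk2a capture, -0.69 ± 0.03 in the pS6 capture and -0.27 ± 0.04 without capture, none past the fold of 2. Of the 13 tested members of this group 6 were called lower in Camk2a, with a group median of -0.89.

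Among late endosome and lysosome members, Rab9b is related to the Rab9 that returns mannose 6-phosphate receptors to the Golgi. Of all members it had the lowest log2 fold change, membrane over cytosolic, in both captures. The gene lies on chromosome X at 136858147 to 136868755 on the minus strand. It had 17.6, 27.7 and 37.5 CPM in Camk2a membrane libraries, against 79.4, 98.9 and 129.7 CPM in Camk2a cytosolic libraries, with no overlap. Its log2 fold change was -1.84 ± 0.06 in Camk2a (adjusted p = 6.35e-38), and in Input it was -1.49 ± 0.05. Within single mice the membrane minus cytosolic difference of log2(CPM + 0.5) ran from -2.38 to -1.27 in Camk2a, so the fold varied among mice but not its sign in any of 30. Rab7, the late endosome Rab, had 236, 261 and 298 CPM in membrane and 490, 519 and 543 CPM in cytosolic libraries, and its log2 fold change of -0.87 ± 0.02 (adjusted p = 5.16e-46) stayed short of the fold of 2.

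Among recycling and early endosome members, Rab11a, which returns receptors to the plasma membrane, had 67.0, 78.3 and 89.7 CPM in Camk2a membrane libraries and 215, 242 and 284 CPM in Camk2a cytosolic libraries. Its log2 fold change was -1.53 ± 0.03 for Camk2a, -1.48 ± 0.03 for pS6 and -1.43 ± 0.04 for Input. Rab5a, of the early endosome, had 66.5, 82.2 and 94.7 CPM in membrane and 170, 198 and 224 CPM in cytosolic libraries of the Camk2a capture. Its log2 fold change was -1.18 ± 0.03 for Camk2a and -1.39 ± 0.03 for pS6; for Input it was -0.87 ± 0.04, short of the fold of 2. Rab22a, also an early endosome Rab, had values of -0.11 ± 0.03, -0.05 ± 0.03 and 0.02 ± 0.03 in Camk2a, pS6 and Input, the last 2 with adjusted p = 0.0757 and 0.405.

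Members tied to exocytosis did not move alike. Rab8b, which works in traffic from the Golgi to the cell surface, had 33.3, 50.3 and 71.6 CPM in Camk2a membrane libraries and 115, 153 and 230 CPM in cytosolic ones, a log2 fold change of -1.54 ± 0.05. Its close relative Rab8a had 35.3, 40.8 and 49.7 CPM in membrane and 64.4, 75.0 and 84.7 CPM in cytosolic libraries, and -0.77 ± 0.03 on the log2 scale. Rab3a had 768, 941 and 1151 CPM in membrane and 1503, 1707 and 1911 CPM in cytosolic libraries, without overlap. Its log2 fold change was -0.76 ± 0.03 in Camk2a, -1.05 ± 0.03 in pS6 and -1.06 ± 0.03 in Input, so it passed the fold of 2 in the last 2. Both values lie close to that limit, and RLE scaling moved the median of all genes up by 0.06 in pS6 and 0.10 in Input. Rab27b, a Rab of secretory granules, was the lowest member in Input with -1.58 ± 0.05 (adjusted p = 6.23e-39); its levels were 18.2, 23.3 and 35.7 CPM in Input membrane and 56.6, 70.0 and 92.7 CPM in Input cytosolic libraries.

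Only Rab13, Rab31 and Rab7b were above 0 in all 3 captures. Rab31, a relative of Rab22a, had 20.04, 34.2 and 59.0 CPM in Camk2a membrane libraries, against 12.9, 17.4 and 23.8 CPM in Camk2a cytosolic libraries; the ranges overlapped. Its log2 fold change was 1.08 ± 0.06 in Camk2a (adjusted p = 1.53e-24), 0.84 ± 0.06 in pS6 and 0.37 ± 0.03 in Input. Rab13, a Rab of cell junctions, had 8.32, 10.9 and 13.7 CPM in Input membrane and 2.73, 4.34 and 5.57 CPM in Input cytosolic libraries. It was the 1 member called higher in each capture, with 1.30 ± 0.10 in Camk2a, 1.18 ± 0.09 in pS6 and 1.32 ± 0.05 in Input. Rab7b was nearly undetected, with medians of 0.544 CPM in Camk2a membrane and 0.191 CPM in Camk2a cytosolic libraries. Beside these 3 genes, all 7 astrocyte and all 7 microglia markers were called higher in membrane than in cytosolic libraries of each capture. The astrocyte median log2 fold change was 4.77 for Camk2a, 3.03 for pS6 and 2.91 for Input, and the microglia median was 4.46, 3.29 and 2.78 in the same order. The part of such cells in the values of Rab13, Rab31 and Rab7b was not tested.

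**Figure D2:**
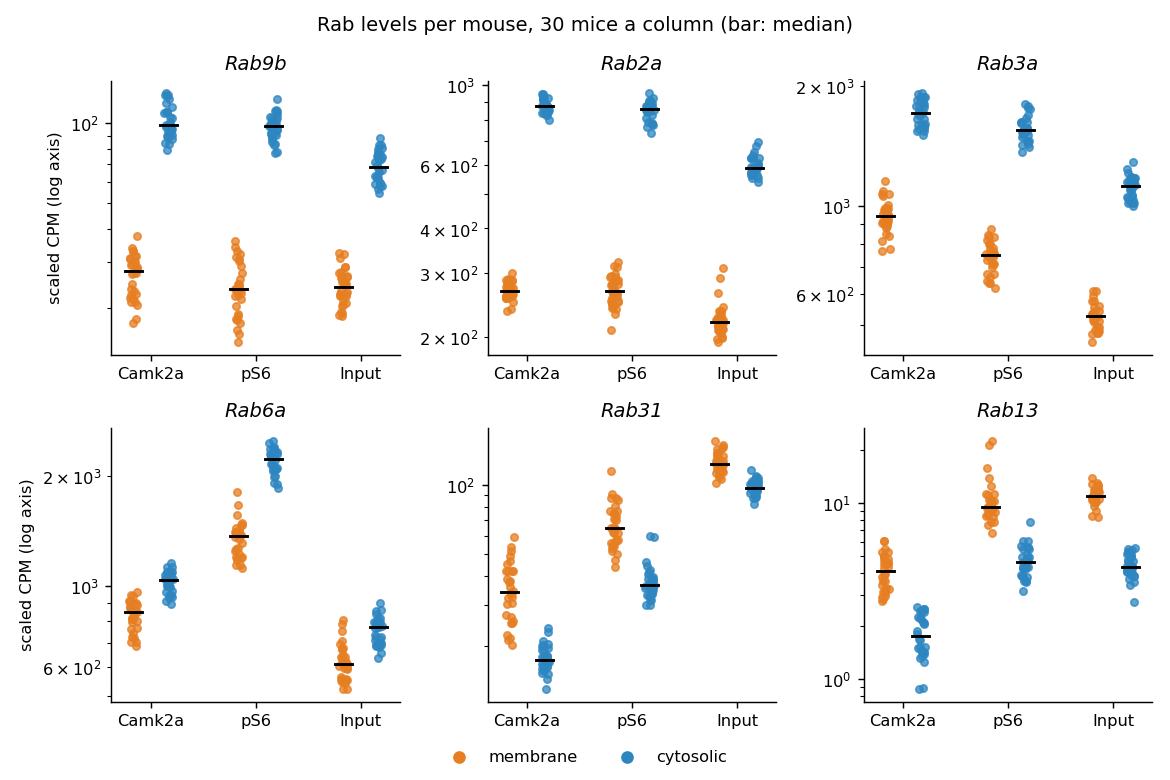
Scaled CPM on a log axis for 6 Rab genes in membrane (orange) and cytosolic (blue) libraries of each capture, 1 point a mouse with the median as a bar. The membrane points of Rab9b, Rab2a and Rab3a lie under all cytosolic points of the same capture, those of Rab6a overlap them in Camk2a and Input, and those of Rab31 and Rab13 lie mostly above them.

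Members that share a kind of cysteine end spread widely. In Camk2a the 15 tested members with a CC end had a median log2 fold change of -0.85 (from -1.84 for Rab9b to 1.83 for Rab7b). The 14 with a CXXX end had a median of -0.90, from -1.54 for Rab8b to 1.30 for Rab13, and the 19 with a CXC end had -0.60, from -1.52 for Rab27b to 0.03 for Rab4b. Across the 54 members the log2 fold change had a Pearson r of -0.10 and a Spearman coefficient of -0.13 with the length of the 3′ untranslated region. With the log2 fold change of Camk2a over Input in cytosolic libraries the Pearson r was -0.74 and the Spearman coefficient -0.44, and with the cytosolic level in CPM they were -0.48 and -0.37. The Camk2a cytosolic libraries enter both measures of the last 2 pairs. The pS6 fraction difference shares no library with Camk2a over Input. Between these the Pearson r was -0.59 and the Spearman coefficient -0.42. For the Input fraction difference they were -0.57 and -0.50, with Input cytosolic libraries in both measures. The points of each fraction comparison share the same 60 libraries, and the values are a description.

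Other lists of lipid-anchored proteins were set beside the Rab genes, with Camk2a values. These lists were chosen with earlier results of these data known. In that fit 10.2% of all genes were called lower and 27.9% higher, and several lists had counts near these shares. The Arf family, small GTPases of vesicle coats that mostly carry a myristoyl anchor, had 8 of 16 members called lower and 1 higher, with a median of -0.97; Arf2 had -1.63 ± 0.03 and Arf1 -1.40 ± 0.03. Other prenylated small GTPases had 4 of 30 lower and 4 higher, with a median of -0.39; Rac1, of the actin cytoskeleton, had -1.22 ± 0.03, and Rac2, best known from blood cells, had 3.36 ± 0.18. Acylated cytosolic proteins had 8 of 21 lower and 3 higher, with a median of -0.66, and G protein alpha and gamma subunits had 3 of 21 lower and 3 higher, with a median of -0.14. Proteins anchored by GPI, which enter the ER as they are made, had 0 of 31 lower and 29 higher, with a median of 1.63. Synaptic vesicle transmembrane proteins had 21 of 24 higher and 2 lower, with the same median of 1.63; the 2 lower were Vamp1 (-1.26 ± 0.04) and Vamp2 (-1.05 ± 0.02), whose anchor is at the tail of the protein.

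Proteins that stay in the cytosol, subunits of the proteasome and enzymes of glycolysis, had 6 of 46 called lower and 3 higher in Camk2a, with a median of -0.51, and in Input 11 lower and 3 higher, with a median of -0.73. Of all genes 10.2% were lower and 27.9% higher in Camk2a, and 8.97% lower and 22% higher in Input. The Rab median of -0.72 in Input was close to that of this list. In Camk2a the Rab median of -0.79 lay between those of the acylated cytosolic proteins and the Arf family. It was lower there than the medians of this list and of the other prenylated small GTPases. In Camk2a it had the opposite sign to the medians of the proteins made at the ER. Differences between lists were not tested. Among the partners of the Rab proteins, the prenylation and delivery list had 3 of 10 higher and 1 lower with a median of -0.04: Rabac1, Arl6ip5 and Praf2, which span the membrane, had 1.97 ± 0.05, 1.96 ± 0.04 and 1.73 ± 0.05, and Rabif, a soluble partner, had -1.23 ± 0.03. Rab exchange factors, GTPase-activating proteins and effectors had medians of -0.16, -0.35 and -0.24.

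**Figure D3:**
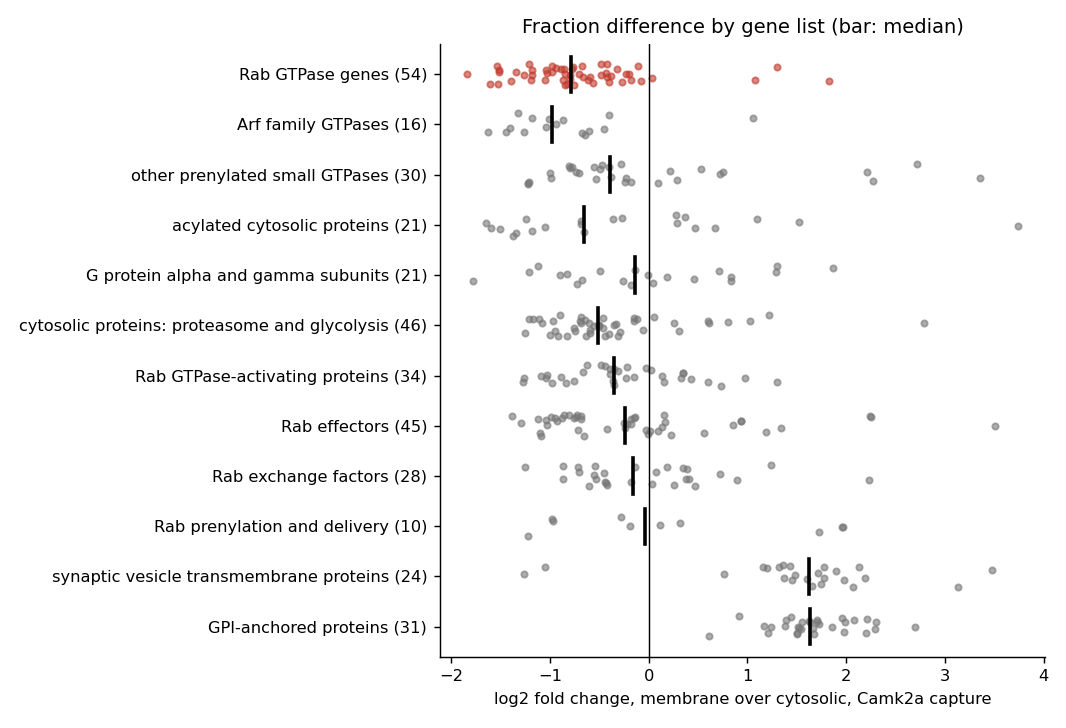
Log2 fold change, membrane over cytosolic, in the Camk2a capture for each tested gene of 12 lists, with the list's median as a black bar and the number tested in brackets. The Rab genes (red) have a median of -0.79, the Arf family -0.97, and the GPI-anchored and vesicle transmembrane lists 1.63 each.

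The fraction difference of the Rab genes was seen in every mouse and each group. The median over the members of the membrane minus cytosolic difference of log2(CPM + 0.5) lay between -0.90 and -0.64 in the 30 Camk2a pairs, against -0.10 to 0.03 for the median of all genes in the same pairs. In Camk2a its group medians were -0.75 in CFC SD, -0.73 in CFC Sleep, -0.74 in NoCFC SD and -0.72 in NoCFC Sleep mice. The test of fraction by SD called 0 members in Camk2a, pS6 and Input, among 0% of all genes, with 0, 3 and 0 members at an unadjusted p under 0.05 (edgeR quasi-likelihood). The test of fraction by CFC called Rab31 in Camk2a, among 1.38% of all genes, and Rab10 and Rab39b in pS6, among 3.89%; their values are given with the training comparison. It called 0 in Input, among 0.151% of all genes, with 7 members at an unadjusted p under 0.05.

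The next question was in which capture each Rab transcript was higher. In these bulk libraries fewer cells of a type and less RNA per cell cannot be told apart. Camk2a libraries against Input had 0 members higher and 5 of 55 lower in the cytosolic fraction, where 0.371% of all genes were higher and 16.5% lower, and 0 higher and 6 of 55 lower in the membrane fraction, where 1.9% were higher and 16.8% lower. Rab31 had the largest change among members above a mean log2 CPM of 3: it had 12.9, 17.4 and 23.8 CPM in Camk2a cytosolic libraries and 82.9, 97.1 and 116 CPM in Input cytosolic libraries. The groups lay far apart, with a log2 fold change of -2.64 ± 0.04 (adjusted p = 8.76e-56), and in membrane libraries it was -1.95 ± 0.06. Rab13 (-1.45 ± 0.08), Rab37 (-1.38 ± 0.11), Rab7b (-3.12 ± 0.16) and Rab20 (-2.93 ± 0.29) were the others lower in cytosolic libraries.

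In membrane libraries Rab7b, Rab13, Rab20, Rab33b (-1.15 ± 0.04) and Rab43 (-1.001 ± 0.137) were lower with Rab31. The call of Rab43 was lost with the mouse as a block. Beside these values, the astrocyte marker sum was 1015 CPM in Camk2a membrane and 3636 CPM in Input membrane libraries; the microglia sum, of 7 markers, was 199 CPM in Camk2a membrane and 783 CPM in Input membrane libraries; their part in the result was not tested. The most abundant members changed by less than the fold of 2: Rab3a was at 0.44 in cytosolic and 0.73 in membrane libraries on the log2 scale, and Rab7 at 0.28 and 0.18. The fraction difference itself differed between Camk2a and Input past the fold of 2 for Rab7b (1.32 ± 0.23, adjusted p = 7.11e-07) and Rab20 (1.56 ± 0.44, adjusted p = 0.00155), among 8.21% of all genes; Rab20 had a median of 1 read in Camk2a cytosolic libraries.

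The pS6 capture had 5 of 55 members higher and 1 lower than Input in the cytosolic fraction, where 11.4% of all genes were higher and 8.84% lower. Rab6a had the largest log2 fold change of the 5: it had 1857, 2237 and 2506 CPM in pS6 cytosolic libraries and 635, 770 and 899 CPM in Input cytosolic libraries, without overlap, a log2 fold change of 1.4997 ± 0.0323 (adjusted p = 1.61e-47). Rab10, which acts in exocytosis and axon growth, had 760, 850 and 931 CPM in pS6 and 286, 322 and 366 CPM in Input cytosolic libraries, and 1.34 ± 0.02 on the log2 scale. Rab24, tied to autophagy, Rab29, a partner of the kinase Lrrk2, and Rab37, of secretory granules, had 1.43 ± 0.05, 1.40 ± 0.04 and 1.11 ± 0.07. Rab31 was lower with -1.40 ± 0.05. In membrane libraries Rab24 (1.13 ± 0.05) and Rab6a (1.03 ± 0.04) were higher, where 7.23% of all genes were, and 0 of 55 were lower, where 3.62% were. Rab24 shares 43.5% of its windows with other genes, most with Prelid1, and Rab6a 22.3%, most with Mrpl48, so their counts are uncertain.

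Between the captures, 8 of 55 members were higher in pS6 than in Camk2a cytosolic libraries and 1 was lower, where 22.3% of all genes were higher and 8.36% lower. Rab20, Rab7b, Rab37, Rab29, Rab13, Rab10, Rab31 and Rab6a were higher. Rab8b was the 1 lower: it had 58.3, 67.2 and 81.4 CPM in pS6 cytosolic libraries and 115, 153 and 230 CPM in Camk2a cytosolic libraries, without overlap, a log2 fold change of -1.23 ± 0.04 (adjusted p = 4.19e-36). In membrane libraries 6 were higher and 0 lower, where 16.5% of all genes were higher and 1.41% lower. Rab29 had 15.2, 18.1 and 24.6 CPM in pS6 and 3.69, 4.81 and 5.99 CPM in Camk2a cytosolic libraries, and 1.97 ± 0.05 on the log2 scale. The sum of 9 inhibitory neuron markers was 868 CPM in pS6 cytosolic and 136 CPM in Camk2a cytosolic libraries. Sums of microglia (48.2 and 7.99 CPM), astrocyte (197 and 57.3 CPM), oligodendrocyte (844 and 398 CPM) and vascular markers (4.07 and 2.28 CPM) were also higher in pS6. Those of excitatory neuron (9402 and 11212 CPM) and choroid plexus markers (29.1 and 35.6 CPM) were lower. The part of these cells in the differences was not tested.

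Sleep deprivation was compared with sleep over both training states, and a call needed an adjusted p under 0.05. A few members rose by modest folds, and Rab40c did so in most library types. The calls were 5 higher of 53 in Camk2a cytosolic libraries, where 4.13% of all genes were higher, 3 of 54 in Camk2a membrane (2.16%), 5 of 55 in pS6 cytosolic (4.6%), 0 of 54 in pS6 membrane (1.11%), 3 of 55 in Input cytosolic (2.04%) and 1 of 53 in Input membrane (1.05%). In either direction 6.28%, 2.97%, 7.88%, 1.73%, 3.17% and 1.37% of all genes were called in these 6 types, in the same order. The calls lower were 3 in pS6 cytosolic libraries, where 3.28% of all genes were lower, and 0 in Camk2a cytosolic, Camk2a membrane, pS6 membrane, Input cytosolic and Input membrane, where 2.15%, 0.802%, 0.619%, 1.13% and 0.32% were. Of the pS6 membrane tests 10 had an unadjusted p under 0.05, and DESeq2 called 1.

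Rab40c, whose protein carries a SOCS box that joins it to a ubiquitin ligase, rose with SD in 5 of 6 library types. The gene lies on chromosome 17 at 25882114 to 25919727 on the minus strand and overlaps Gm16278. In Camk2a cytosolic libraries it had 68.2, 73.1 and 90.1 CPM in SD mice (lowest, median and highest of 14), against 54.2, 59.98 and 69.6 CPM in Sleep mice (of 16). All 14 SD mice were above the Sleep median, with a small overlap of the ranges, and the log2 fold change was 0.30 ± 0.03 (adjusted p = 1.67e-07, edgeR quasi-likelihood). Mean differences within runs were 0.28, 0.32 and 0.30 for mice 1 to 11, 12 to 22 and 23 to 30.

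In the other types Rab40c changed by 0.23 ± 0.04 in Camk2a membrane (adjusted p = 8.2e-04), 0.23 ± 0.05 in pS6 cytosolic (9.92e-04), 0.26 ± 0.04 in Input cytosolic (3.09e-05) and 0.22 ± 0.05 in Input membrane libraries (0.00729). In pS6 membrane libraries it had 30.4, 41.3 and 59.0 CPM in SD mice and 29.2, 33.7 and 47.2 CPM in Sleep mice, a difference of 0.23 ± 0.07 that missed the threshold (adjusted p = 0.0738). Estimates lay between 0.22 and 0.30 in the 6 types, and the SE was largest in pS6 membrane libraries.

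Rab8b rose in both Camk2a types and in Input cytosolic libraries. It had 139, 174 and 230 CPM in SD mice and 115, 144 and 175 CPM in Sleep mice in Camk2a cytosolic libraries, overlapping ranges with all 14 SD mice above the Sleep median. The log2 fold change was 0.32 ± 0.07 (adjusted p = 0.00221), with within-run differences of 0.34, 0.34 and 0.26. It was 0.34 ± 0.06 in Camk2a membrane libraries (adjusted p = 7.43e-04) and 0.26 ± 0.06 in Input cytosolic libraries (adjusted p = 0.0128); in pS6 cytosolic libraries it was 0.11 ± 0.05 (adjusted p = 0.171). Rab23, known from cilia and the Hedgehog pathway, had 32.8, 37.4 and 44.5 CPM in SD mice and 27.5, 31.8 and 35.3 CPM in Sleep mice in Camk2a cytosolic libraries. It rose by 0.28 ± 0.05 there (adjusted p = 2.15e-04), and by 0.15 ± 0.04 in Input cytosolic and 0.15 ± 0.04 in pS6 cytosolic libraries (adjusted p = 0.0178 and 0.0311).

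The other calls were Rab39 and Rab8a in Camk2a cytosolic, Rab30 in Camk2a membrane and 6 members in pS6 cytosolic libraries. Rab39, a low member of endosomes and phagosomes, had 1.24, 2.13 and 4.02 CPM in SD mice and 0.705, 1.35 and 2.41 CPM in Sleep mice in Camk2a cytosolic libraries, a log2 fold change of 0.66 ± 0.18 (adjusted p = 0.0172). Rab8a differed by 0.12 ± 0.03 (adjusted p = 0.0173) and Rab30, of the Golgi, by 0.28 ± 0.08 (adjusted p = 0.0288). In pS6 cytosolic libraries Rab39 (0.55 ± 0.13), Rab37 (0.27 ± 0.09) and Rab3b, a vesicle Rab (0.19 ± 0.05), rose, while Rab26 (-0.21 ± 0.04), Rab24 (-0.19 ± 0.06) and Rab4a (-0.10 ± 0.03) fell. Of these, Rab26, which is tied to vesicles and autophagy, had the smallest adjusted p (0.00147), with 72.0, 79.8 and 95.1 CPM in SD mice and 77.2, 95.1 and 107 CPM in Sleep mice.

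In pS6 cytosolic libraries all 9 inhibitory neuron markers rose with SD, with a median log2 fold change of 0.34, and their sum had a median of 943 CPM in SD and 769 CPM in Sleep mice. In Camk2a cytosolic libraries 0 of these 9 were called, with a median of 0.04. Of the other lists in pS6 cytosolic libraries, 2 of 7 excitatory neuron markers fell (median -0.13) and 1 of 7 astrocyte markers rose (median 0.40). Oligodendrocyte, microglia, vascular and choroid plexus markers had 0 calls, with medians of -0.02, -0.04, -0.13 and 0.75. The part of these cells in the pS6 calls was not tested. Without mice 23 to 30, the calls were 3 in Camk2a cytosolic libraries (5 with all mice), 3 in pS6 cytosolic libraries (8 with all mice) and 1 in Input cytosolic libraries (3 with all mice), in a fit with fewer mice; Rab40c kept each of its 5 calls. With no filter on low counts pS6 cytosolic libraries had 4 calls. With the run as a term, Rab37 and Rab4a were no longer called in pS6 cytosolic libraries. In that fit Rab34 was also called lower in Camk2a cytosolic and Rab23 higher in Camk2a membrane libraries. Of the 9 members fixed as representatives of their compartments, Rab8a was called in Camk2a cytosolic libraries as given above. The others, Rab3a, Rab1a, Rab7, Rab5a, Rab6a, Rab11a, Rab27b and Rab9b, were not called in any of the 6 types, with log2 fold changes between -0.10 and 0.11.

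Of the regulators, Rin2, an exchange factor for Rab5, was the 1 exchange factor to rise with SD in Input membrane (0.38 ± 0.07), Input cytosolic (0.24 ± 0.05), pS6 membrane (0.44 ± 0.09) and pS6 cytosolic libraries (0.35 ± 0.09). Camk2a cytosolic libraries had 1 exchange factor higher, Rab3gap2, and Camk2a membrane libraries 0; the list had 27 to 29 genes tested a type. Of 44 tested effectors 4 rose and 3 fell in pS6 cytosolic libraries, where 4.6% of all genes rose and 3.28% fell, among them Rims2, a scaffold of the release site that binds Rab3 (0.28 ± 0.04), and Myo5b, a motor for Rab11 vesicles (-0.27 ± 0.04). In the other types 2 effectors rose in Camk2a cytosolic and 1 in Input cytosolic libraries, 2 fell in pS6 membrane and 1 in Input membrane libraries, and 0 were called in Camk2a membrane libraries. Of 34 or 35 tested GTPase-activating proteins 1 rose in Camk2a cytosolic libraries, Tbc1d22a (0.18 ± 0.04), 2 in Camk2a membrane libraries, Tbc1d22a (0.22 ± 0.05) and Evi5l (0.20 ± 0.04), and 1 in pS6 cytosolic libraries, Tbc1d1 (0.21 ± 0.06). Tbc1d8b fell in Input membrane libraries (-0.35 ± 0.08), and 0 were called in pS6 membrane and Input cytosolic libraries. The shares of all genes called in each type are those given above with the Rab genes.

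Training was compared with no training over both sleep states. In the 3 cytosolic types 0 members were called, among 0.148%, 0.133% and 0.219% of all genes in Camk2a, pS6 and Input (0.128%, 0.127% and 0.169% higher and 0.0202%, 0.00607% and 0.0502% lower), with 2, 5 and 4 members at an unadjusted p under 0.05; DESeq2 called 1 in Camk2a cytosolic libraries. In membrane libraries 5 members rose and 7 fell of 54 in Camk2a, where 9.81% of all genes rose and 7.17% fell. In pS6 membrane libraries 7 rose and 1 fell of 54, where 8.1% of all genes rose and 8.75% fell, and in Input membrane libraries 2 rose and 0 fell of 53, where 3.63% rose and 2.9% fell. With the run as a term 0 members were called in each of the 3 membrane types. For mice 1 to 22 the run follows the training, so both cannot be told apart, and within-run values come from mice 23 to 30 alone, 4 CFC and 4 NoCFC mice.

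Rab31 rose in all 3 membrane types. It had 27.3, 42.1 and 59.0 CPM in CFC mice (lowest, median and highest of 15) and 20.04, 26.6 and 38.8 CPM in NoCFC mice (of 15) in Camk2a membrane libraries. The ranges overlapped, 14 of 15 CFC mice were above the NoCFC median, and the log2 fold change was 0.57 ± 0.10 (adjusted p = 5.02e-04), against 0.23 within mice 23 to 30. In pS6 membrane libraries it was 0.31 ± 0.08 (0.21 within that run) and in Input membrane libraries 0.17 ± 0.04 (0.12 within that run). In Camk2a cytosolic libraries its value was 0.09, and the test of fraction by CFC gave 0.49 ± 0.13 (adjusted p = 0.0328). That call was lost with no filter on low counts (0.48, adjusted p = 0.0965), and with the run as a term in each fraction Rab31 had -0.06 ± 0.22 (adjusted p = 0.978). Beside it, 4 of 7 astrocyte markers, 4 of 7 microglia markers and 3 of 7 oligodendrocyte markers rose with CFC in Camk2a membrane libraries, with medians of 0.41, 0.35 and 0.37. So did 1 of 4 choroid plexus, 1 of 9 inhibitory neuron and 1 of 6 vascular markers, with medians of 0.66, 0.17 and 0.05. The astrocyte sum was 1228 CPM in CFC and 932 CPM in NoCFC mice. Their part in the result was not tested.

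Rab10 rose by 0.28 ± 0.05 in pS6 membrane libraries (adjusted p = 2.83e-04), where it had 326, 390 and 442 CPM in CFC mice and 238, 283 and 418 CPM in NoCFC mice. All 15 CFC mice were above the NoCFC median, and within mice 23 to 30 the difference was 0.17. It rose by 0.15 ± 0.04 in Camk2a membrane libraries, and the difference from its cytosolic change in pS6 was 0.25 ± 0.07 (adjusted p = 0.0214); Rab39b, a gene of X-linked intellectual disability in people, gave 0.29 ± 0.09 in the same test (adjusted p = 0.0359). With the run as a term in each fraction neither was called: Rab10 had 0.11 ± 0.11 (adjusted p = 0.892) and Rab39b 0.17 ± 0.17 (adjusted p = 0.913). With the mouse as a block the test of fraction by CFC called 4 members in Camk2a and 4 in pS6.

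Rab3a fell in both captured membrane types. It had 768, 899 and 1057 CPM in CFC mice and 890, 976 and 1151 CPM in NoCFC mice in Camk2a membrane libraries, with overlap and 3 of 15 CFC mice above the NoCFC median. The log2 fold change was -0.18 ± 0.04 (adjusted p = 0.00149), against -0.10 within mice 23 to 30, and in pS6 membrane libraries it was -0.17 ± 0.04 (-0.08 within that run). Beside it, 2 of 7 excitatory neuron markers fell in Camk2a membrane and 2 of 7 in pS6 membrane libraries, with medians of -0.05 and -0.08, and 0 rose; their part in the result was not tested. Rab3c and Rab26, also tied to vesicles, fell by 0.15 and 0.14 on the log2 scale in Camk2a membrane libraries, as did Rab33a, Rab24, Rab14 and Rab6b. Beside Rab31 and Rab10, those that rose there were Rab33b (0.22 ± 0.07), Rab8b (0.20 ± 0.06) and Rab23 (0.19 ± 0.06). In pS6 membrane libraries Rab5a (0.22 ± 0.05), Rab39b (0.23 ± 0.07), Rab28, a Rab of cilia (0.17 ± 0.05), Rab6a (0.13 ± 0.05) and Rab2a (0.11 ± 0.04) rose, and in Input membrane libraries Rab8b (0.21 ± 0.05).

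**Figure D4:**
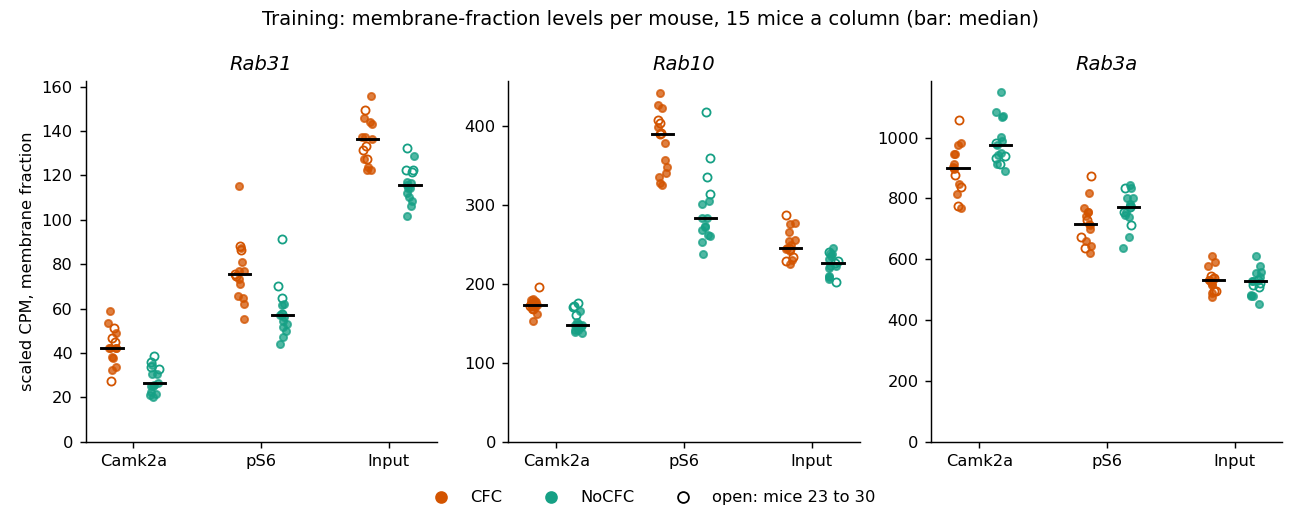
Scaled CPM of Rab31, Rab10 and Rab3a in membrane libraries of each capture, CFC mice (orange, 15) left of NoCFC mice (green, 15), with open circles for mice 23 to 30, the median as a bar and the axis from 0. Rab31 and Rab10 have higher medians in CFC mice in the captures (42.1 CPM in CFC and 26.6 CPM in NoCFC mice for Rab31 in Camk2a), and within mice 23 to 30 the Camk2a difference is 0.23 for Rab31 and 0.06 for Rab10 on the log2 scale.

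Of the Rab effectors in the same membrane libraries, 8 of 44 fell in Camk2a, 9 of 45 in pS6 and 5 of 45 in Input, and 0 rose, with median log2 fold changes of -0.07, -0.12 and -0.07, where 7.17%, 8.75% and 2.9% of all genes fell. Fitted with the run as a term, 0 effectors were called in each of the 3 types, with medians of -0.06, -0.10 and -0.09. Among them Rph3a, the vesicle protein that binds Rab3a, fell by 0.26 ± 0.04 in Camk2a and 0.27 ± 0.05 in pS6 membrane libraries. Of the exchange factors 1 rose and 2 fell of 28 in Camk2a, 1 rose and 5 fell of 29 in pS6, and 1 rose and 1 fell of 28 in Input membrane libraries. The 1 that rose was Rin2 each time, by 0.53, 0.53 and 0.47. Rab3gap2, of the Rab18 exchange factor, fell by 0.17 ± 0.05 in Camk2a and 0.37 ± 0.08 in pS6 membrane libraries, and Dennd6b, an exchange factor with a DENN domain, fell by 0.39 ± 0.10 in pS6 and 0.24 ± 0.08 in Input membrane libraries. GTPase-activating proteins had 2 higher and 2 lower of 34 in Camk2a, 0 higher and 6 lower of 34 in pS6, and 1 higher and 1 lower of 34 in Input membrane libraries. Of all genes 9.81%, 8.1% and 3.63% rose in Camk2a, pS6 and Input membrane libraries. Of the prenylation and delivery list, Rabggta fell in Camk2a membrane libraries (-0.14 ± 0.05). In pS6 membrane libraries Gdi2 fell (-0.17 ± 0.05) and Arl6ip5 rose (0.13 ± 0.04). Exchange factors, GTPase-activating proteins and the prenylation and delivery list had no call in these types with the run as a term. The training by sleep test called 0 members in any of the 6 types, among 0% of all genes, with between 0 and 2 members a type at an unadjusted p under 0.05 (edgeR quasi-likelihood).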

How the data were processed

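The authors deposited 1 table of raw counts per gene for 180 libraries, made per the submitters' processing notes with STAR 2.6.1a, featureCounts and MultiQC 1.6a0 on GRCm38.p6; libraries were SMART-seq v4, per the labels' protocols. The strand setting of the counting is not given in the sources used here. Each comparison was fitted over all genes with edgeR 4.0.16 in R 4.3.3 (TMM scaling, filterByExpr, robust quasi-likelihood F-test, Benjamini-Hochberg adjustment). SD, CFC and their interaction were fitted within each library type (30 libraries), fractions and captures over pairs of types (60 libraries), and fraction by capture over 4 types (120 libraries). SE is the log2 fold change divided by the square root of F. Levels are CPM with all libraries scaled together, and differences within a mouse use a pseudocount of 0.5 CPM. Common scaling lies -0.10, -0.04 and -0.00 (log2) from the scaling of the fraction fits of Camk2a, pS6 and Input. Scripts were tested on simulated data. Same-numbered libraries come from the same mouse, per the labels: their deviations had a median r of 0.28 across types, against -0.05 between different mice.

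Alternatives were RLE scaling, no filter, DESeq2 1.42.0, the mouse as a block, the run as a term, and leaving out mice 23 to 30. Leaving out mice 19 and 22, keeping the 38 members with no overlap and few shared windows, and the run as a term in each fraction for fraction by SD and by CFC were added after seeing the data. Where values are given in full, members were taken by size of change or smallest p in each comparison, plus fixed representatives of each compartment. The members follow a rule on symbols alone, but that rule and the lists were set with earlier results of these data known. Separate mice are the replicates. The main fits of fractions, captures and fraction by capture had no term for the mouse, so libraries of the same mouse entered them as separate. The mouse as a block was an alternative. Counting intervals were not needed, since no share of a single library is reported.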

Additional observations from a re-analysis of the deposited data

Results flagged for a closer look

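In 8 of 164 groups of 7 or 8 mice examined, 1 mouse stood far from the others; chance alone marks about 1 in 20 such groups. In pS6 membrane libraries Rab6a had 1816 CPM in mouse 25 (CFC Sleep), where the next mouse had 1471 CPM, Rab31 had 91.5 CPM in mouse 27 (NoCFC SD), where the next had 64.7 CPM, and Rab2a had 293 CPM in mouse 23 (NoCFC Sleep), where the next had 259.9 CPM. In pS6 cytosolic libraries Rab26 had 93.4 CPM in mouse 19 (CFC SD) and Rab3b had 120 CPM in mouse 13 (CFC Sleep), both above the rest. In Camk2a membrane libraries Rab10 had 153 CPM in mouse 15 (CFC Sleep) and Rab6b had 646 CPM in mouse 28 (NoCFC SD), both below the rest. In Input membrane libraries Rab40c had 43.9 CPM in mouse 23 (NoCFC Sleep), above the rest.

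The effect of CFC differed between the membrane and cytosolic fractions for Rab31 in Camk2a by 0.49 on the log2 scale, and in pS6 for Rab39b by 0.29 and for Rab10 by 0.25. With the run as a term in each fraction these values were -0.06 for Rab31, 0.17 for Rab39b and 0.11 for Rab10, and none was called; training and run cannot be told apart for mice 1 to 22. With no filter on low counts Rab31 had 0.48, which missed the threshold (adjusted p = 0.0965). The fraction difference itself differed between Camk2a and Input for Rab7b by 1.32 and for Rab20 by 1.56. These 5 came from interaction terms tested over all genes.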

How the results depend on the processing

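Of 210 counts of Rab genes recomputed, 182 stayed within 1.5 times their value and 28 did not; of 725 values of single genes, 98 lost their call with the same sign, 2 reversed and the others kept it. With the run as a term the CFC calls were 0 in Camk2a, pS6 and Input membrane libraries (12, 8 and 2 without it), and Rab33b in Camk2a membrane libraries was -0.018 (0.22 without it). With the run as a term in each fraction, fraction by CFC called 0 in Camk2a and 0 in pS6 (1 and 2), and Rab31 in Camk2a was -0.060 (0.49 without it). Training and the first 2 runs cannot be told apart. The SD calls of Rab37 and Rab4a in pS6 cytosolic libraries were lost with the run as a term. Without mice 23 to 30 the SD calls were 3 in Camk2a cytosolic, 3 in pS6 cytosolic and 1 in Input cytosolic libraries (5, 8 and 3). Without mice 19 and 22, SD called 1 member in pS6 membrane libraries (0), Rab3a and Rab27a dropped under the fold of 2 between Input fractions, and the CFC calls of Rab14, Rab3c, Rab39b and Rab2a and the SD calls of Rab23 and Rab24 in pS6 cytosolic libraries were lost.

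With DESeq2, SD called 1 in pS6 membrane (0) and CFC 1 in Camk2a cytosolic libraries (0). Members lower between Input fractions numbered 10 with RLE, 10 with no filter and 10 with DESeq2 (16). Among the 38 members with no overlap and few shared windows, not all of them tested, 10 were lower in Camk2a and 12 in pS6. Among all tested members it was 16 of 54 and 20 of 55. The smaller set alone lowers these counts, and both are among the 28 that moved. With no filter, SD called 4 in pS6 cytosolic libraries (8); membrane libraries had 5 members higher in Camk2a and 2 in pS6 (3 and 1); 2 were lower in pS6 than in Input cytosolic libraries (1); and fraction by capture called 2 for pS6 against Input (0). Fraction by CFC called 2, 0 and 4 in Camk2a (1) and 5, 5 and 4 in pS6 (2) with RLE, with no filter and with the mouse as a replicate block. The replicate block also called 1 member lower in pS6 than in Input membrane libraries (0) and ended the call of Rab43 and of no other gene named with values. Except where stated, the cause was not tested. Members under 1 CPM per kb are limited by depth.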
